A study of Mus musculus with 6 samples.

Results

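The 6 genes described here are protein genes of the mouse mitochondrial genome, namely ND1, ND3, ND4 and ND5 of complex I, CYTB of complex III and COX1 of complex IV. They were taken as the probe sets whose platform annotation gives a single symbol equal to one of these names, and each of the 6 had exactly 1 such probe set among 22180 genes with a single symbol. The annotation writes these symbols without the mt- prefix. RefSeq (GRCm38.p6) places all 6 on the mitochondrial genome, which carries 13 protein genes, and gives them the same symbols. The samples are adipose tissue of mouse offspring aged 32 weeks, with 3 arrays from offspring of dams fed a chromium restriction diet and 3 from offspring of dams fed a control diet. Total RNA was labelled with biotin and each sample was hybridised to its own array. The labels give neither strain, sex nor fat depot, and they do not say whether the samples came from separate animals or litters. The p-values therefore describe how far these particular samples vary, which may be technical.

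The mitochondrial genome is a small circular DNA, present in many copies per cell, which encodes core subunits of the respiratory chain together with the ribosomal and transfer RNAs needed to translate them. Most of its protein genes lie on the same strand and are cut out of long shared transcripts. The nucleus encodes every other subunit, and it also encodes the polymerase, processing enzymes and translation factors that act inside the organelle. White fat holds fewer mitochondria than brown fat, in which the chain also drives heat production through the uncoupling protein Ucp1. In bulk tissue RNA, fewer cells of a type and less RNA per cell cannot be told apart.

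No change of the mitochondrially encoded transcripts was detected. At an adjusted p of 0.05 limma called 0 of the 6 genes, where it called 0.194% of all 22180, and 0 had an unadjusted p under 0.05, where 5.95% of all genes did. The smallest adjusted p among the members was 0.932. In 5 of the 6 genes the mean difference lay between 0.003 and 0.015 on the log2 scale, and that of ND3 was -0.10. The median difference was 0.006 for the 6 genes and -0.018 for all genes tested. All 6 intervals of the difference stayed within 0.27 log2 units of 0.

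ND1, a subunit of the membrane arm of complex I near the site where ubiquinone is reduced, had levels of 13.47, 13.57 and 13.59 in chromium restriction replicates 1, 2 and 3 and 13.63, 13.44 and 13.54 in control replicates 1, 2 and 3 (deposited log2 values, as for every level below). Control replicates 1 and 2 enclosed all 3 chromium restriction arrays. Group means were 13.54 ± 0.06 and 13.54 ± 0.10 (SD, n = 3), a log2 difference of 0.005 with a 95% interval of -0.19 to 0.20 (limma, adjusted p = 0.997). In fold terms the interval ran from 0.875 to 1.15.

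ND4 and ND5 encode large membrane-arm subunits that take part in proton pumping. ND4 was at 13.80, 13.88 and 13.87 in the chromium restriction arrays and at 13.89, 13.81 and 13.85 in the controls. The 6 values spanned 0.084 log2 units, the smallest span among the members, and the groups overlapped. The difference of ND4 was 0.003 with an interval of -0.16 to 0.17 (limma, adjusted p = 0.998). ND5 was at 13.43, 13.54 and 13.48 in the chromium restriction arrays and at 13.56, 13.39 and 13.47 in the controls. These groups overlapped as well, and the difference of ND5 was 0.007 with an interval of -0.18 to 0.20 (limma, adjusted p = 0.997).

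CYTB, cytochrome b, carries electrons within complex III. Its levels were 13.53, 13.65 and 13.65 in the chromium restriction arrays and 13.68, 13.52 and 13.60 in the controls, with overlapping groups and a difference of 0.007 (interval -0.18 to 0.20, limma adjusted p = 0.997). COX1 holds the catalytic centre of cytochrome c oxidase, where oxygen is reduced. It was at 13.66, 13.74 and 13.78 in the chromium restriction arrays and at 13.75, 13.63 and 13.75 in the controls. The groups overlapped, and the difference of COX1 was 0.015 (interval -0.16 to 0.20, limma adjusted p = 0.997).

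ND3, a small membrane subunit of complex I, was the single member whose groups did not overlap. It was at 13.38, 13.48 and 13.46 in the chromium restriction arrays and at 13.59, 13.49 and 13.55 in the controls. The highest chromium restriction value, in replicate 2, lay 0.005 below the lowest control, replicate 2. Means were 13.44 ± 0.06 against 13.54 ± 0.05 (SD, n = 3), a log2 difference of -0.10 with an interval of -0.27 to 0.07, or 0.934-fold (limma, adjusted p = 0.932, unadjusted p = 0.207). Over all genes 6.06% were lower in this way without overlap, against 1 of the 6 members.

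**Figure D1:**
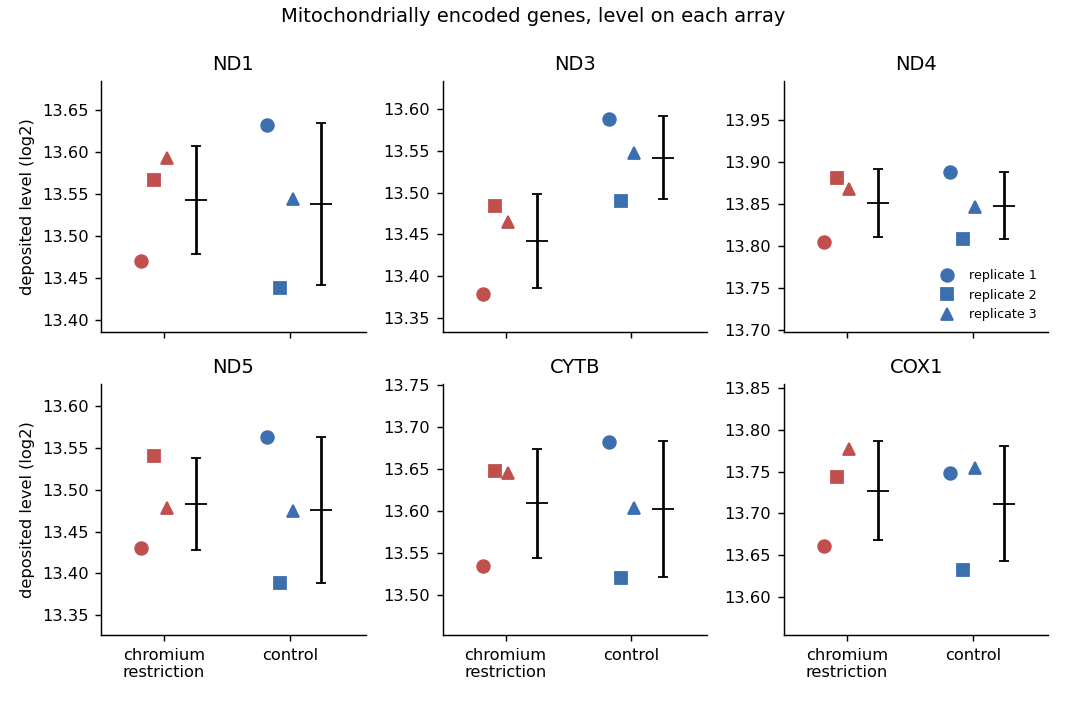
Deposited log2 level of the 6 mitochondrially encoded genes on each array (red, chromium restriction; blue, control; symbol, replicate number), with the group mean and SD (n = 3) as a bar. Every panel spans the same height on the log2 axis, which does not start at 0; the groups overlap for all genes except ND3, where they are separated by 0.005.

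The members shared a pattern across the arrays that crossed the diet groups. All 6 had their lowest value in control replicate 2 (4 genes) or chromium restriction replicate 1 (2 genes), and 5 of 6 had their highest in control replicate 1, COX1 being the exception. Averaged over the 6 genes, the level was 13.55, 13.64 and 13.64 in the chromium restriction arrays (replicates 1, 2 and 3) and 13.68, 13.55 and 13.63 in control replicates 1, 2 and 3. The group means of this average were 13.61 ± 0.05 and 13.62 ± 0.07 (SD, n = 3). Across the 15 pairs of members, Pearson's r over the 6 arrays ran from 0.47 to 0.99 with a median of 0.89, as a description of points that share an array. The 5 pairs that include ND3 were the lowest, at 0.47 to 0.61.

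The 2 arrays with the lowest member means also had the narrowest spread of deposited values. The distance between the lower and upper quartile was 2.03 in chromium restriction replicate 1 and 2.02 in control replicate 2, and 2.10 to 2.22 in the other 4. Among those 4 the order was not shared: control replicate 1, with the highest member mean, had the narrowest spread and control replicate 3, with the lowest, the widest. The array medians of chromium restriction replicate 1 and control replicate 2 were also the highest, at 5.57 and 5.55 against 5.44 to 5.49. The part of these array-wide properties in the member levels was not tested.

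Set against the other 5 members on the same array, ND3 was shifted by similar amounts in the 3 chromium restriction arrays. Its deviation from its control mean, minus the mean deviation of the other 5, came to -0.11, -0.10 and -0.11 on the chromium restriction arrays 1 to 3 and to -0.02, 0.03 and -0.004 on the control arrays 1 to 3. This comparison was chosen after the values were seen and carries no test. RefSeq places ND3 between COX3 and ND4L in the order of protein genes along the mitochondrial genome.

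Another 6 probe sets are annotated to mitochondrial genome genes, 4 with a single symbol and 2 with several. None passed the test over all 33793 probe sets (limma, adjusted p of 0.984 or more), where 0.148% did, and none had an unadjusted p under 0.05 or groups without overlap. ND4L, a small subunit of complex I, was at 13.005, 13.19 and 12.88 in the chromium restriction arrays and at 13.31, 13.06 and 13.18 in the controls. Its difference of -0.16 was the lowest of the 12 probe sets, with an interval of -0.42 to 0.10 and overlapping groups. The ND4L probe set is numbered next to the one annotated to ATP6, ATP8 and Gm10925, away from the numbers of the 6 members. Its r with the mean of the 6 members was 0.53, and its lowest value was in chromium restriction replicate 3. Whether it reads only the mitochondrial transcript was not tested. COX3, which follows the ATP synthase genes and precedes ND3, differed by -0.003 (interval -0.23 to 0.22).

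ND6 is the single protein gene on the other strand of the mitochondrial genome. It was at 12.21, 12.18 and 12.01 in the chromium restriction arrays and at 12.26, 11.95 and 11.78 in the controls, and it spanned 0.480 log2 units, the widest of the 12. Its difference was 0.14 with an interval of -0.20 to 0.47. Control replicate 3 held its lowest value, where COX3 was lowest in chromium restriction replicate 1. The r of ND6 with the mean of the 6 members was 0.19, against 0.53 for ND4L, 0.81 for COX3 and 0.91 for ND2.

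ND2, a further subunit of complex I, differed by 0.03 (interval -0.18 to 0.23). The probe set annotated to COX2 and Prf1 differed by -0.04, and that annotated to ATP6, ATP8 and Gm10925 by 0.03. RefSeq lists Gm10925 as a nuclear pseudogene with ATP6 among its synonyms, so the last probe set may read more than the mitochondrial transcript.

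**Figure D2:**
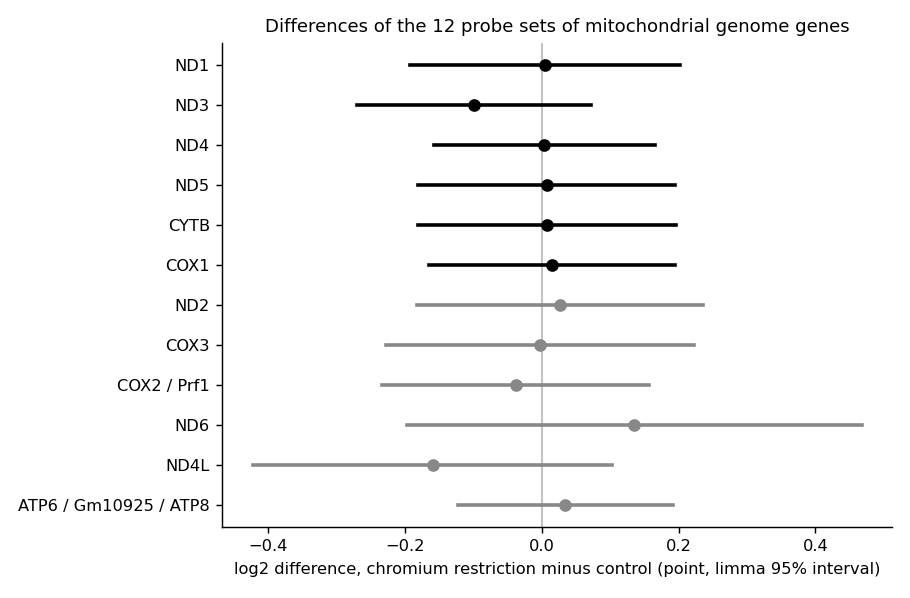
Log2 difference between the groups (chromium restriction minus control, n = 3 each) for the 6 members (black) and the other 6 probe sets of mitochondrial genome genes (grey), with limma's 95% interval. All 12 intervals include 0; the lowest points are ND4L at -0.16 and ND3 at -0.10.

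All 6 members lay at the top of the value range. On each array all 6 were among the 20 highest values of genes outside the rows with extra digits (rows in which some values are written with more digits than the rest of the deposited table, and none of which holds a member), and ND4 was the highest of all on 4 of the 6 arrays. No saturation flags come with the values, so how far a change in transcript amount would show at these values cannot be read from the table. The median SD within groups was 0.071 over the 21 genes with a mean of at least 13 and 0.15 over all genes. Of the 14 such genes that are neither members nor in rows with extra digits, the differences ran from -0.35 to 0.09. Cox6a1, a nuclear subunit of complex IV with a mean just under that limit, was at 12.71, 12.87 and 12.90 in the chromium restriction arrays and at 13.10, 12.96 and 13.09 in the controls, with a difference of -0.22 (limma, adjusted p = 0.817).

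The nuclear partners of these subunits had lower means in most cases, although 0 of 71 measured genes of complexes I to V passed the test over all genes. Of the 71 genes 65 were lower and 6 higher in the chromium restriction group, with a median log2 difference of -0.22, where 56.8% of all genes were lower. An unadjusted p under 0.05 was reached by 20 of them, all lower (3.53% of all genes did so in that direction). In 28 of the 71 the groups did not overlap and the chromium restriction group was lower, as in 6.06% of all genes. On every chromium restriction array the mean deviation of the 71 genes from their control means lay below that of the 6 members: -0.39 against -0.07 in replicate 1, -0.20 against 0.02 in replicate 2 and -0.17 against 0.02 in replicate 3. In the controls the 2 values differed by -0.01, -0.05 and 0.06. The mean over the 71 genes includes Cox7a1 and Cox8b, which are also brown fat markers here and differed by -1.33 and -1.56. The difference between the nuclear and the mitochondrial genes is given as a description, since the members were chosen with results known.

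In complex I, 28 of 32 nuclear subunits were lower, with a median of -0.19. Ndufa10 was at 10.07, 10.52 and 10.38 in the chromium restriction arrays and at 11.06, 10.89 and 10.90 in the controls, a difference of -0.63 ± 0.13 (SE, n = 3, limma adjusted p = 0.546). Ndufs8, an iron-sulphur subunit, differed by -0.40 ± 0.10. In complex III all 8 measured nuclear subunits were lower, with a median of -0.28, and the core subunit Uqcrc2 differed by -0.54 ± 0.19 (SE, n = 3, limma adjusted p = 0.805). In complex IV all 12 nuclear subunits were lower, with a median of -0.22, and Cox5a differed by -0.34 ± 0.10. Cox8b, a subunit isoform found in brown fat and muscle, was at 5.45, 5.91 and 5.85 against 8.58, 6.39 and 6.91.

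Complex II and the ATP synthase were examined in the same way. Complex II has no mitochondrially encoded subunit. Its 4 genes were all lower without overlap between the groups, as were 6.06% of all genes, with differences from -0.53 to -0.33. Sdha, the flavoprotein subunit, was at 10.88, 11.47 and 11.06 in the chromium restriction arrays and at 11.84, 11.58 and 11.57 in the controls (limma, adjusted p = 0.770). In the ATP synthase 13 of 15 nuclear subunits were lower, with a median of -0.20, and Atp5b, the catalytic beta subunit, differed by -0.36 ± 0.11 (SE, n = 3, limma adjusted p = 0.770).

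**Figure D3:**
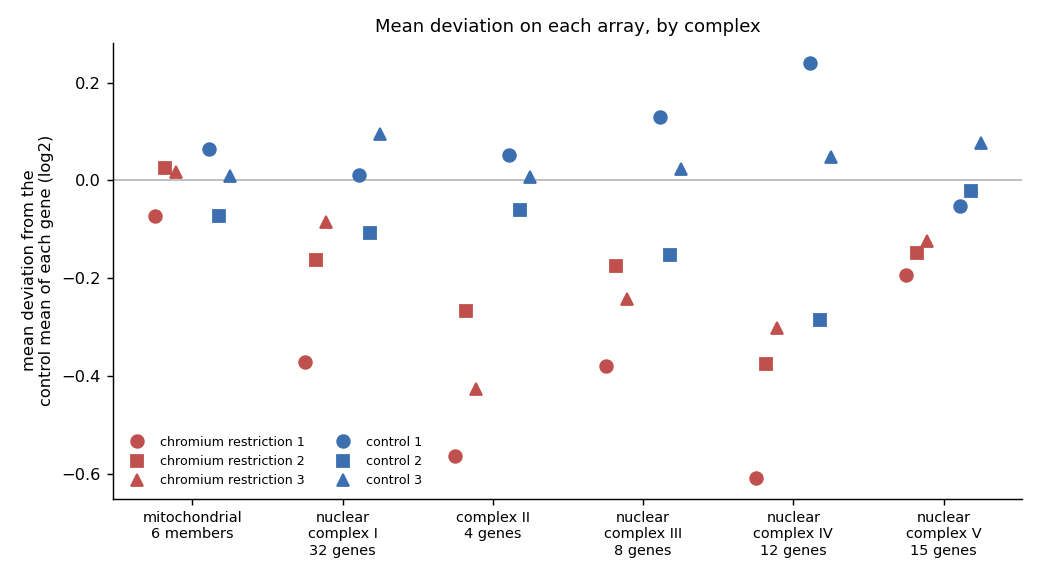
Mean deviation of each gene from its own control mean (log2), averaged over the 6 mitochondrially encoded members and over the measured nuclear subunits of each complex, 1 point per array (red, chromium restriction; blue, control; symbol, replicate number). The members sit between -0.07 and 0.06 on all 6 arrays, while the chromium restriction arrays reach -0.61 in nuclear complex IV, where control replicate 2 is also low, at -0.29. The complex IV mean includes Cox7a1 and Cox8b, which are also brown fat markers here and differed by -1.33 and -1.56. The median difference of its 12 genes was -0.22.

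Genes that copy and transcribe mitochondrial DNA were also examined. Of 10 genes for replication and upkeep 6 were lower and 4 higher, with a median of -0.02 and 0 past the test. Tfam, which packages mitochondrial DNA and starts its transcription (a member of the list shown here for that role, not for its p), was at 6.69, 6.71 and 6.82 in the chromium restriction arrays and at 6.83, 6.40 and 6.91 in the controls. The topoisomerase gene Top1mt was at 6.48, 6.35 and 6.57 against 6.16, 6.20 and 6.17, a difference of 0.29 ± 0.08 (SE, n = 3, limma adjusted p = 0.707). Among 8 transcription genes 6 were lower, with a median of -0.15 and 0 past the test. Polrmt, the mitochondrial RNA polymerase, differed by 0.10 ± 0.09, and Tfb2m, its initiation factor, by -0.43 ± 0.17 (SE, n = 3, limma adjusted p = 0.817).

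Most genes that act on the transcripts afterwards had lower means in the chromium restriction group. In RNA processing and stability 15 of 16 were lower, with a median of -0.19 and 0 past the test. Grsf1, an RNA-binding protein of mitochondrial RNA granules, differed by -0.28 ± 0.11, and Ptcd1, a pentatricopeptide repeat protein, by -0.34 ± 0.13 (SE, n = 3). In mitochondrial translation 10 of 11 were lower, with a median of -0.22 and 0 past the test, and the elongation factor gene Gfm1 differed by -0.28 ± 0.10 (SE, n = 3). Of 23 assembly factors for complexes I and IV 22 were lower, with a median of -0.13 and 0 past the test; Foxred1, a complex I assembly factor, differed by -0.44 ± 0.18 (SE, n = 3). Chromium restriction replicate 1 was the lowest array for all 3 lists. The mean deviation from the controls in chromium restriction replicates 1, 2 and 3 was -0.40, -0.06 and -0.11 for RNA processing. It was -0.42, -0.05 and -0.13 for translation and -0.38, -0.03 and -0.13 for assembly. Replicates 1 and 3 were both rich in liver transcripts, with the liver marker Alb at 13.72 and 13.55, against 9.17 in replicate 2. The part of liver RNA in these shifts was not tested.

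Markers of mitochondrial mass were all lower, 11 of 11, with a median of -0.25 and 0 past the test. Cs, citrate synthase, was at 10.15, 11.05 and 10.40 in the chromium restriction arrays and at 11.34, 11.32 and 11.15 in the controls, a difference of -0.74 ± 0.23 (SE, n = 3, limma adjusted p = 0.765). The mean deviation of the mass markers from the controls was -0.51 and -0.27 in chromium restriction replicates 1 and 3, where Alb, a liver marker, was at 13.72 and 13.55, and -0.08 in replicate 2, where it was at 9.17; the part of liver RNA was not tested. Of 11 regulators of mitochondrial biogenesis 9 were lower, with a median of -0.05 and 0 past the test. The coactivator gene Ppargc1a was at 5.96, 5.95 and 6.33 against 6.74, 5.97 and 6.54, with overlapping groups, and its relative Pprc1 differed by 0.33 ± 0.14 (SE, n = 3, limma adjusted p = 0.817).

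**Figure D4:**
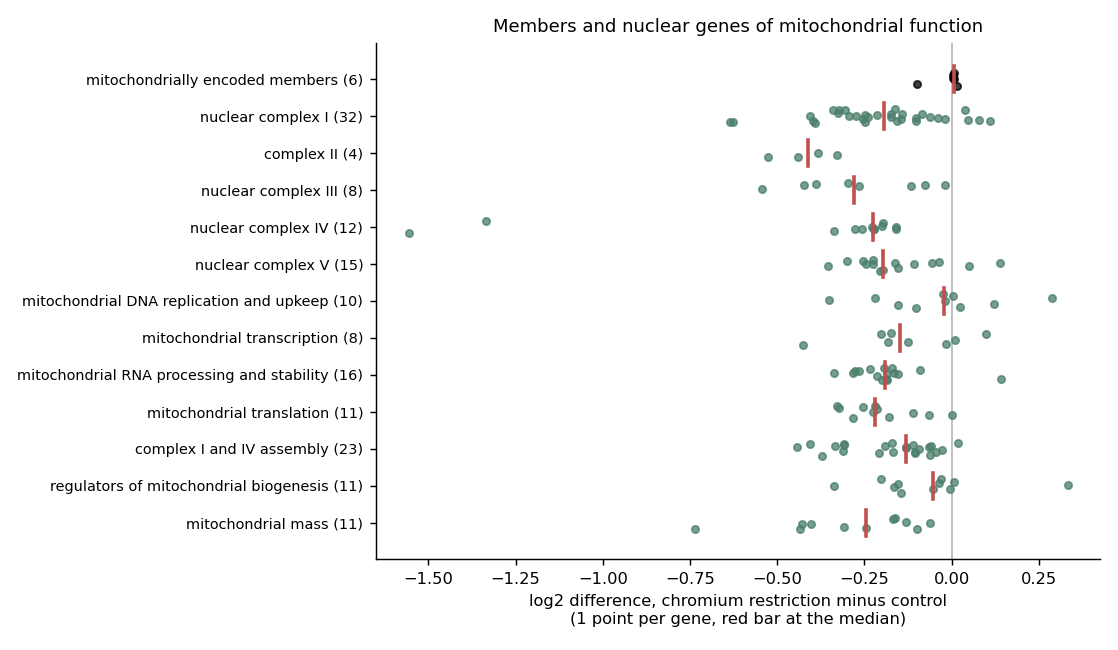
Log2 difference between the groups (chromium restriction minus control) for each of the 6 members (black) and each measured gene of the nuclear lists (green), with the number of genes in brackets and the median as a red bar. The members lie between -0.10 and 0.02, while the medians of the nuclear lists run from -0.41 in complex II to -0.02 in replication and upkeep.

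Transcripts of other tissues differed between arrays. Ucp1 was at 10.25, 4.89 and 7.37 in control replicates 1, 2 and 3 and at 4.87 to 4.94 in the chromium restriction arrays, and 7 of 9 brown fat markers were lower in that group (list means of 6.01 to 6.17 against 6.10 to 8.08, and of 5.54 to 5.71 against 5.77 to 8.01 over the 8 outside rows with extra digits). Control replicate 1, with the highest Ucp1, also held the highest value of 5 of the 6 members, and control replicate 2, with Ucp1 at the chromium restriction level, the lowest of 4. Control replicate 3, with Ucp1 at 7.37, had a member mean of 13.63, below the 13.64 of chromium restriction replicates 2 and 3, where Ucp1 was at 4.92 and 4.94. With Ucp1 as a covariate the member differences ran from -0.05 to 0.10. Without control replicates 1 and 3, which leaves control replicate 2 alone in its group, they ran from -0.05 to 0.11. All 7 liver markers were higher in the chromium restriction group (list means of 6.55 to 11.33 against 6.56 to 6.94), Alb reaching 13.72 and 13.55 in replicates 1 and 3 and 9.17 in replicate 2. Without replicates 1 and 3, which leaves chromium restriction replicate 2 alone in its group, the member differences ran from -0.06 to 0.06. With the liver markers as a covariate they ran from -0.06 to 0.06. All 10 intestinal markers were higher as well (list means of 5.93 to 6.83 against 5.34 to 5.55), and 2 of them passed the test over all genes, Fabp2 (limma adjusted p = 0.00358) and Apoa4 (limma adjusted p = 0.0120), neither in a row with extra digits. Leaving those rows out of the adjustment left 0 genes called, with a smallest adjusted p of 0.0732 (limma). White adipocyte markers, which mark the labelled tissue, had list means of 11.75 to 11.91 in the chromium restriction arrays and 12.10 to 12.23 in the controls. This list includes Adipoq, which lies in a row with extra digits; over the other 7 markers the means were 11.91 to 12.10 against 12.15 to 12.30.

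Among 2342 named genes with an SD of at least 0.3 over the 6 arrays, those most like the members were ranked by Pearson's r with the mean of the 6, as a description of 6 arrays without a test. The highest were Pik3r3, a regulatory subunit of phosphoinositide 3-kinase, at r = 0.98, Naa16, Emcn, an endothelial sialomucin, Zfp738 and Ecm2, an extracellular matrix protein, each at r = 0.98. Emcn was at 8.26, 8.90 and 8.80 in the chromium restriction arrays and at 8.93, 8.25 and 8.74 in the controls, in the same order of arrays as the member mean. The lowest were Adgre1, a macrophage surface protein, at r = -0.99, Aldh1l1 at -0.97, Ttll9 at -0.96, Carns1 at -0.96 and Tagap1 at -0.94. Adgre1 was at 8.61, 7.80 and 7.99 against 7.50, 8.58 and 8.04, highest in the arrays where the members were lowest. None of these 10 genes passed the test between the groups (limma, adjusted p of 0.986 or more). Over the 6 macrophage markers, Adgre1 among them, array means were 9.58, 9.04 and 8.96 against 8.69, 9.20 and 9.14. Over the 5 endothelium markers, which leave out Emcn, they were 9.15, 9.17 and 9.19 against 9.38, 8.95 and 9.01. The order of arrays differed between markers of the same list, and the part of cell content was not tested.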

How the data were processed

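Each of 6 adipose samples was measured on its own 1-colour array. The deposited table holds 33793 probe sets; the authors' values run from 3.49 to 14.86 with array medians of 5.44 to 5.57 and were taken as log2, from their range. How they were summarised and normalized, and to which log base, is not stated, and 0 value columns were left out. Precision is limited by the number of arrays, 3 in each group.

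Of the probe sets 23521 had 1 symbol in the platform annotation, 1814 had several and 8458 had none. For each gene the probe set with the highest mean was kept, with no filter on dim ones. The groups were compared with limma 3.58.1 (lmFit, eBayes; R 4.3.3). Tests were two-sided and p-values were adjusted by Benjamini and Hochberg across the 22180 genes (or all 33793 probe sets, for the 6 other mitochondrial probe sets) and a threshold of 0.05. The scripts were tested on simulated data. In 64 probe sets 183 values were written with extra digits; 40 of the 43 genes called over the whole table lie in such rows, and no member does.

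Besides the members, genes were named by rule. They were the other probe sets of mitochondrial genome genes, up to 4 genes of each list with the smallest p, Ucp1 and Alb. The 5 genes most and the 5 least like the members were named as well. Tfam, Adipoq, Fabp2, Apoa4, Cox7a1 and Retn were added after their values were seen. Members, lists and most alternatives were chosen with earlier results of these data known. Coordinates are left out because the files name no build.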

Additional observations from a re-analysis of the deposited data

How the results depend on the processing

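Under all 20 alternatives limma called 0 of the 6 members; their lowest adjusted p was 0.673. ND3 was lower in all 20, with differences from -0.14 to -0.05. Differences near 0 changed sign in 26 of 120 member values. Quantile normalization turned ND1 to -0.026, ND4 to -0.35, ND5 to -0.011, CYTB to -0.041 and COX1 to -0.044; the shift of ND4 comes from its place at the top of 2 control arrays, where the Retn row with extra digits holds the top of the chromium restriction arrays. Without such rows the same normalization, added after the data were seen, gave 0.0062 for ND1 and 0.025 for ND5. It gave -0.0098 for ND4, -0.0065 for CYTB, -0.015 for COX1 and -0.11 for ND3. Median centring gave -0.013 for ND1, -0.014 for ND4, -0.010 for ND5, -0.011 for CYTB and -0.0024 for COX1, with a median of all genes of -0.036. Leaving out 1 array gave ranges of -0.045 to 0.052 for ND1, -0.016 to 0.027 for ND4, -0.036 to 0.051 for ND5, -0.034 to 0.047 for CYTB, -0.024 to 0.048 for COX1 and -0.13 to -0.07 for ND3.

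Of all genes 43 were called as reported and 24 to 439 without 1 array, the latter without chromium restriction replicate 2. The count was 0 without the rows with extra digits, 0 with quantile normalization of the table without them and 9 with Ucp1 as covariate. The cause was not tested. Leaving out both arrays rich in liver transcripts, or both controls with raised Ucp1, leaves 1 array in a group, so no count is given for these. With the replicate number as a block 0 genes were called, ND3 differed by -0.10 and the member range stayed at -0.10 to 0.02. Same-numbered arrays had residual correlations of -0.12, -0.09 and 0.08. With residuals taken within groups of 3 arrays, these values cannot show whether the numbers pair the samples. Nuclear respiratory chain genes were lower in 55 to 68 of 71 over the 19 alternatives that tested all 71, and in 64 of 67 with the filter on dim genes. The 55 came without controls 1 and 3, where control replicate 2 was the only control left. All members lay close to the top of the scale, and how far this limits their differences cannot be read from these values.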

Other observations

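Between ND1 and ND6 in probe set number lie 13 probe sets that the annotation leaves unnamed here. Their means ran from 6.21 to 11.73 on the log2 scale, below those of the members, and their values spanned 0.51 to 1.33 log2 units over the 6 arrays, with a median of 0.94, against 0.084 to 0.209 for the 6 members. Of the 13, 10 were lower and 3 higher in the chromium restriction group, with differences from -0.37 to 0.20. In limma over all 33793 probe sets 0 passed an adjusted p of 0.05, 1 had an unadjusted p under 0.05, and in 0 did the groups not overlap.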
